A study of Mus musculus with 18 samples.

Results

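Cd40, Cd44, Cd69, Cd80, Cd83, Cd86, Icam1, Il2ra and Tnfrsf14 encode 9 surface molecules by which B cells show that they are activated and by which they exchange costimulation with T cells. The 9 genes were taken from the list by symbol and mapped through the GENCODE M21 annotation (mouse build GRCm38) to the Ensembl gene IDs of the deposited table. That table held 35275 gene IDs, of which 11646 were tested because they averaged 1 FPKM or more over all libraries. FPKM stands for fragments per kilobase of gene and per M (mega) fragments of the library. All 9 genes passed that filter. The cells were pan B cells from the spleen of C57BL/6 mice, kept in culture and read out by bulk RNA sequencing. For 1 h they were held in 1000 ng/ml of mBaffR-mFc, a fusion of the mouse BAFF receptor that is meant to cover the part of BAFF that contacts the receptor BR3, or of a control antibody. For the next 4 h they received 100 ng/ml of BAFF 60mer, 100 ng/ml of BAFF 3mer or no BAFF. Each of the 6 groups had 3 libraries. BRFc_60mer, BRFc_3mer and BRFc denote mBaffR-mFc followed by BAFF 60mer, by BAFF 3mer and by no BAFF. Ab_60mer, Ab_3mer and Ab denote the control antibody followed by the same additions. Every group had 1 of the 2 pretreatments, so none shows untouched cells. The labels do not say whether libraries of a group came from separate animals, and p-values therefore measure only the spread between these libraries.

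BAFF is a survival factor of B cells of the TNF family, and its receptors BR3, TACI and BCMA pass signals through TRAF adaptors to the NF-kB transcription factors. CD40, the receptor for CD40 ligand on helper T cells, uses many of the same adaptors. Activated B cells display CD80 and CD86 to CD28 and CTLA-4 on T cells, and display CD69, CD83, CD44, ICAM-1 and CD25 (the product of Il2ra) as markers of activation. Several of these genes, among them Cd40, Cd44, Cd83, Icam1 and Il2ra, are known as NF-kB targets in lymphocytes.

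The libraries held 12.2 to 25.4 M fragments (median 18.4 M). Of 10 B cell markers, 9 were measured and each had a mean of at least 1 FPKM in every group. Their summed level lay between 4781 and 5477 FPKM. The summed level of 6 connective tissue transcripts (Col1a1, Col1a2, Col3a1, Sparc, Dcn and Bgn) divided the libraries along a line that is not that of the groups. It was 8.14 to 12.9 FPKM in 8 libraries, namely all of BRFc_60mer, all of Ab_60mer and replicates 1 and 2 of Ab_3mer, and 0 to 0.131 FPKM in the other 10. Wherever BAFF 60mer was set against no BAFF, or against BAFF 3mer under mBaffR-mFc, every 60mer library carried these transcripts and no library on the other side did, so the carrying of these transcripts and the 60mer cannot be told apart there. Ab_60mer against replicates 1 and 2 of Ab_3mer is the comparison within carrying libraries, and its values are given beside the others. Dendritic cells also express Cd40, Cd80, Cd83, Cd86, Cd44 and Icam1, and the summed level of 8 dendritic cell markers was 18.4 to 22.8 FPKM in the 6 libraries with BAFF 60mer and 13.2 to 15.7 FPKM in the other 12. Most of that sum was Zbtb46 (8.68 to 18 FPKM), and 3 of the 8 had a mean of at least 1 FPKM in each group. Besides Zbtb46 these were Itgax (1.32 to 2.57 FPKM) and Flt3 (1.14 to 1.93 FPKM), present in every library. Siglech, Cd209a, Xcr1, Clec9a and Batf3 were at most at 0.675 FPKM in any library. The part of dendritic cells in the results below was not tested. Bulk values cannot tell fewer cells of a type from less RNA per cell.

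The 9 transcripts covered a wide range of levels. Cd83, whose product steadies MHC class II and CD86 on the cell surface, was the highest in all 18 libraries, at 309.5 to 534 FPKM (mean 423). Cd86 was next in all 18 libraries, at 98.7 to 149 FPKM (mean 125), and Cd40 had rank 3 in 17 of them, at 58.4 to 93.8 FPKM (mean 68.9). Cd44 (43.3 to 68.6 FPKM, mean 53.0) and Cd69 (43.1 to 69.2 FPKM, mean 53.0) did not differ beyond their spread. Neither did Tnfrsf14 (26.3 to 46.5 FPKM, mean 34.0) and Il2ra (26.5 to 37.9 FPKM, mean 30.1), and the range of Icam1 (19.5 to 28.1 FPKM, mean 24.0) overlapped that of Il2ra. Cd80 was the lowest in all 18 libraries at 0.826 to 1.68 FPKM (mean 1.2), which came from 22 to 50 fragments per library, so its values carry a large counting error. The gene lengths behind the FPKM values were shorter than all annotated exons together, for example 1085 bases against 3406 for Cd40. On the full exon lengths Cd83 (352 FPKM) and Cd86 (40.3 FPKM) stayed first and next, Cd40 (21.9 FPKM) and Cd44 (21.8 FPKM) came level, and Cd80 (0.551 FPKM) stayed last. Comparisons of a single gene between libraries do not depend on these lengths.

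**Figure D1:**
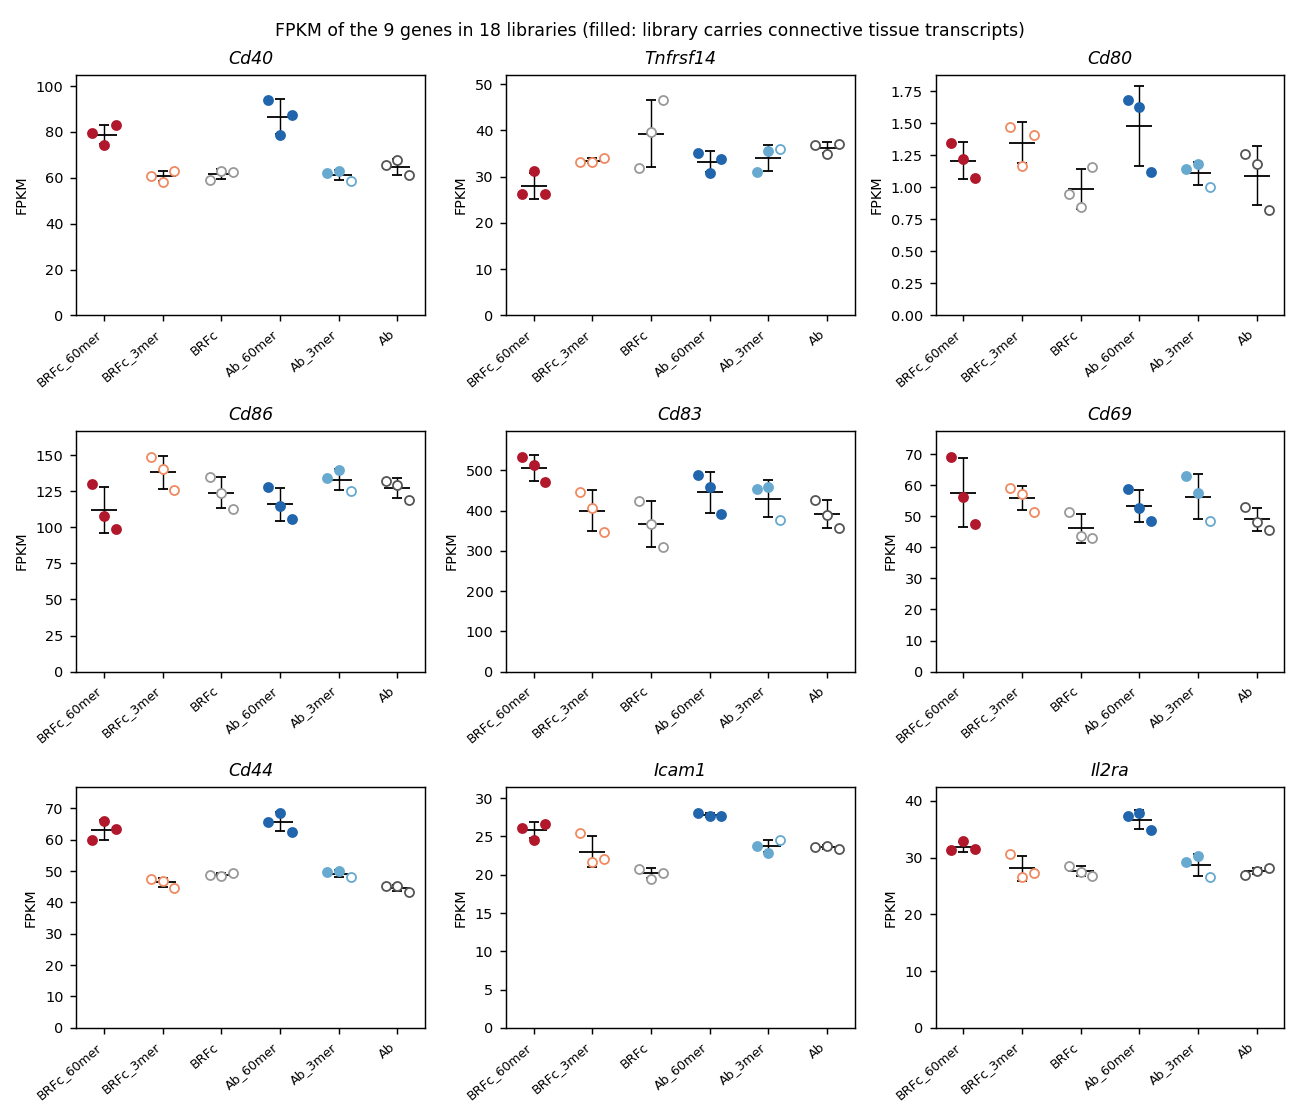
FPKM of each of the 9 genes in every library (points, vertical axis from 0), by group, with the group mean and its SD (bars, n = 3). Filled points are libraries that carry connective tissue transcripts. Cd40 and Cd44 in the 6 libraries with BAFF 60mer lie above all other libraries, from 74.4 FPKM upward for Cd40 and from 59.8 FPKM upward for Cd44.

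BAFF 60mer went with higher transcripts of CD40, CD44, ICAM-1 and, after control antibody, CD25, by 17.1% to 47.2% of mean FPKM in the comparisons that passed, while transcripts of the CD28 ligands CD80 and CD86 did not pass the test in any comparison. In Ab_60mer over Ab, 4 of the 9 genes passed as higher (Cd40, Cd44, Il2ra and Icam1) and none as lower. Of all tested genes, 14% passed there in either direction and 5.04% as higher. The same 4 were the ones whose libraries did not overlap between these groups, against 32.7% of all tested genes. In BRFc_60mer over BRFc, 4 passed as higher (Cd40, Cd44, Icam1 and Cd83) and Tnfrsf14 passed as lower, where 4.83% of all tested genes passed, 1.46% as higher and 3.37% as lower. There 6 of the 9 did not overlap, with Il2ra added, against 20.5% of all tested genes. Of the genes that passed in the whole table, 36.1% were higher in Ab_60mer over Ab and 30.2% in BRFc_60mer over BRFc, and these shares were 46.4% and 43.9% after median-of-ratios rescaling of the libraries. The median difference of the 9 genes was 0.23 in Ab_60mer over Ab and 0.30 in BRFc_60mer over BRFc on the log2(FPKM + 1) scale, beside -0.02 over all tested genes in both. Against BAFF 3mer, 4 genes were higher in Ab_60mer over Ab_3mer (the same 4 as over Ab) and 2 in BRFc_60mer over BRFc_3mer (Cd40 and Cd44). Of all tested genes, 4.81% passed in Ab_60mer over Ab_3mer, 1.8% as higher, and 5.16% in BRFc_60mer over BRFc_3mer, 2.05% as higher. Libraries did not overlap for 4 of the 9 in Ab_60mer over Ab_3mer (23.9% of all tested genes) and for 5 of the 9 in BRFc_60mer over BRFc_3mer (24.2%). These comparisons share libraries with those against no BAFF and are not separate evidence. In a test over all 6 groups, Cd44, Cd40, Icam1 and Il2ra passed, against 8.93% of all tested genes. With the carrying of connective tissue transcripts as a term in the model, which rests on the single Ab_3mer library that lacks them, 1 of the 9 passed in Ab_60mer over Ab (Cd44), 3 in Ab_60mer over Ab_3mer (Cd40, Cd44 and Il2ra) and none in BRFc_60mer over BRFc or BRFc_60mer over BRFc_3mer. Standard errors were larger with that term, and its values are given for each gene whose call it ended.

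**Figure D2:**
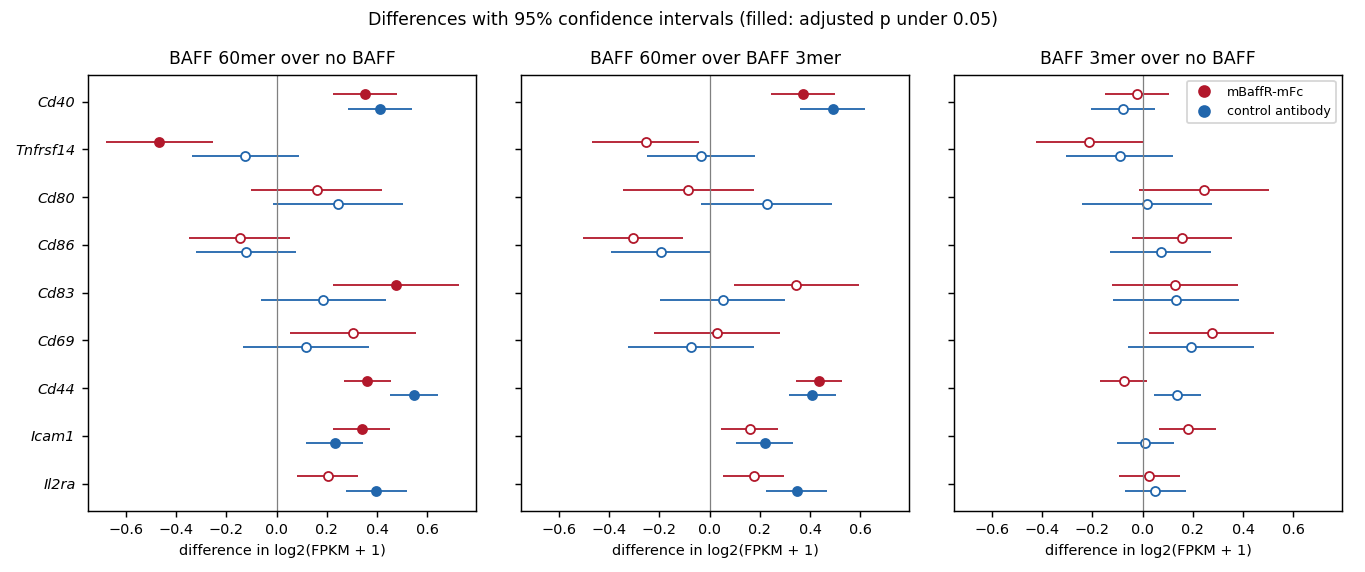
Difference between BAFF conditions for each of the 9 genes, in log2(FPKM + 1), with 95% confidence intervals from limma. Red is after mBaffR-mFc and blue after control antibody, and filled points passed at an adjusted p under 0.05. Cd40 and Cd44 are filled in all 4 comparisons of BAFF 60mer, and no point is filled for BAFF 3mer over no BAFF.

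Cd40 (chr2:165055627-165072948, plus strand) encodes the receptor through which helper T cells activate B cells. It stood at 79.4, 74.4 and 82.9 FPKM in BRFc_60mer and at 93.8, 78.5 and 87.3 FPKM in Ab_60mer. It stood at 60.9, 58.4 and 62.8 FPKM in BRFc_3mer and at 59.0, 63.1 and 62.7 FPKM in BRFc. In Ab_3mer it was at 62.0, 62.9 and 58.7 FPKM, and in Ab at 65.5, 67.6 and 61.1 FPKM. Every library with BAFF 60mer was thus above every library without it, and the remaining 4 groups overlapped each other. Cd40 was higher by 0.41 ± 0.0607 on the log2(FPKM + 1) scale in Ab_60mer over Ab (SE; 95% interval 0.28 to 0.54; adjusted p = 0.000455, limma) and by 0.35 ± 0.0607 in BRFc_60mer over BRFc (adjusted p = 0.00287). Over BAFF 3mer the differences were 0.49 (adjusted p = 0.000177) after control antibody and 0.37 (adjusted p = 0.00159) after mBaffR-mFc. Within carrying libraries the difference of Ab_60mer over Ab_3mer was 0.46 (adjusted p = 0.00168). With the connective tissue term the calls of Cd40 in Ab_60mer over Ab (0.32 ± 0.11; adjusted p = 0.366), BRFc_60mer over BRFc (0.26 ± 0.11; adjusted p = 0.851) and BRFc_60mer over BRFc_3mer (0.29 ± 0.11; adjusted p = 0.593) were lost. Of the variation of Cd40 between libraries, 90.7% lay between groups.

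Tnfrsf14 (chr4:154921933-154928563, minus strand) encodes HVEM, a receptor for LIGHT and lymphotoxin alpha that also binds BTLA and CD160. Its libraries were at 26.3, 31.2 and 26.3 FPKM in BRFc_60mer, at 33.1, 33.2 and 34.1 FPKM in BRFc_3mer, and at 31.9, 39.6 and 46.5 FPKM in BRFc. After control antibody they were at 35.1, 30.7 and 33.9 FPKM with BAFF 60mer, at 30.9, 35.5 and 35.9 FPKM with BAFF 3mer, and at 36.8, 34.9 and 37.1 FPKM in Ab. The lowest values of all belonged to BRFc_60mer, and BRFc had the widest spread of the 6 groups. In BRFc_60mer over BRFc, Tnfrsf14 fell by 0.47 on the log2(FPKM + 1) scale (SE 0.101; 95% interval -0.68 to -0.25; adjusted p = 0.0124, limma), and no library of BRFc_60mer reached the lowest of BRFc. That call was lost when BRFc replicate 2, BRFc replicate 3 or BRFc_60mer replicate 1 was left out (adjusted p = 0.0506, 0.0697 and 0.0568), with a difference of -0.34 without BRFc replicate 3, and with the connective tissue term (-0.35 ± 0.184; adjusted p = 0.954). In Ab_60mer over Ab the difference was -0.12 ± 0.101 (adjusted p = 0.439), with overlapping libraries. The difference between these 2 differences was -0.34 ± 0.143 and did not pass (unadjusted p = 0.0288, adjusted p = 0.901). Of the ligands of HVEM, Lta was measured above the filter and rose with BAFF 60mer after both pretreatments, to 6.3 FPKM in BRFc_60mer against 4.47 FPKM in BRFc and to 7.53 FPKM in Ab_60mer against 5.57 FPKM in Ab (adjusted p = 0.0341 after mBaffR-mFc and 0.0266 after control antibody, limma). Btla, the gene of the inhibitory receptor that HVEM binds, rose by 0.27 ± 0.0592 in BRFc_60mer over BRFc (adjusted p = 0.0124) and differed by 0.18 ± 0.0592 in Ab_60mer over Ab (adjusted p = 0.0529).

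Cd86 and Cd80 encode the costimulatory ligands of CD28 and CTLA-4. Cd86 was at 130.2, 108 and 98.7 FPKM in BRFc_60mer, at 149, 140.1 and 126 FPKM in BRFc_3mer, and at 135, 124 and 113 FPKM in BRFc. It was at 128, 115 and 106 FPKM in Ab_60mer, at 134, 139.8 and 125 FPKM in Ab_3mer, and at 132, 129 and 119 FPKM in Ab. The means of the 2 groups with BAFF 60mer, 112 ± 16.2 and 116 ± 11.4 FPKM (SD, n = 3), were the lowest of the 6, but their libraries overlapped those of every other group. The largest difference of Cd86 was -0.30 ± 0.0946 in BRFc_60mer over BRFc_3mer (95% interval -0.50 to -0.10; adjusted p = 0.0774, limma). It passed at an adjusted p of 0.0412 with voom on recovered fragments and of 0.0185 without BRFc_60mer replicate 1, and also with the order of deposition as a block. Cd80 averaged 1.21 ± 0.142 FPKM in BRFc_60mer, 1.35 ± 0.162 FPKM in BRFc_3mer and 0.985 ± 0.157 FPKM in BRFc. It averaged 1.48 ± 0.315 FPKM in Ab_60mer, 1.11 ± 0.092 FPKM in Ab_3mer and 1.09 ± 0.231 FPKM in Ab (SD, n = 3). Cd80 passed in no comparison. The interval of Ab_60mer over Ab ran from -0.02 to 0.50 around 0.24, and since 1 was added to values near 1 FPKM, that scale understates the ratio of the means, which differed by 35.7%. The libraries of a group together held 105 to 127 fragments of Cd80.

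Cd83 (chr13:43784775-43803132, plus strand) and Cd69 encode markers that appear on B cells early after activation. Cd83 was at 534, 513 and 471 FPKM in BRFc_60mer, at 447, 407 and 346 FPKM in BRFc_3mer, and at 423, 366 and 309.5 FPKM in BRFc. It was at 488, 458 and 390.3 FPKM in Ab_60mer, at 453, 459 and 376 FPKM in Ab_3mer, and at 427, 389 and 357 FPKM in Ab. Every library of BRFc_60mer was above every library of BRFc and of BRFc_3mer, while the 3 groups after control antibody overlapped. Cd83 was higher by 0.48 ± 0.118 in BRFc_60mer over BRFc on the log2(FPKM + 1) scale (95% interval 0.23 to 0.72; adjusted p = 0.0266, limma), and the interval in Ab_60mer over Ab was -0.06 to 0.44 around 0.19 (adjusted p = 0.313). With the order of deposition as a block, an alternative described below, Cd83 passed in Ab_60mer over Ab (adjusted p = 0.0116, limma) and in BRFc_60mer over BRFc_3mer (adjusted p = 0.000331). The call in BRFc_60mer over BRFc was lost without BRFc replicate 2 or 3 (adjusted p = 0.0808 and 0.154), without BRFc_60mer replicate 1 or 2 (adjusted p = 0.0986 and 0.0883), with no filter on low genes (adjusted p = 0.0795), and with the connective tissue term, which moved the difference most (0.20 ± 0.202; adjusted p = 0.999). Its difference between the pretreatments, 0.29 ± 0.167, did not pass (adjusted p = 0.922). Within carrying libraries Cd83 differed by -0.04 between Ab_60mer and Ab_3mer (adjusted p = 0.925). The Ab_3mer library without connective tissue transcripts, replicate 3, was also the third deposited, the position in which Cd83 was lowest in every group. For Cd83 the values with that term and within carrying libraries therefore cannot be told apart from the order of deposition.

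Cd69, whose product holds lymphocytes in tissue by binding the sphingosine 1-phosphate receptor S1PR1, was at 69.2, 56.2 and 47.4 FPKM in BRFc_60mer, at 59.0, 57.1 and 51.5 FPKM in BRFc_3mer, and at 51.4, 43.7 and 43.1 FPKM in BRFc. It was at 58.6, 52.7 and 48.4 FPKM in Ab_60mer, at 62.8, 57.4 and 48.6 FPKM in Ab_3mer, and at 52.9, 48.3 and 45.7 FPKM in Ab. The groups overlapped in every comparison except BRFc_3mer over BRFc, and Cd69 passed in none. Its difference was 0.30 ± 0.118 in BRFc_60mer over BRFc (adjusted p = 0.169) and passed there without BRFc_60mer replicate 3 (0.43; adjusted p = 0.044, limma). That difference also passed with the order of deposition as a block (adjusted p = 0.00304, limma). In Ab_60mer over Ab it was 0.12 ± 0.118 (adjusted p = 0.55). S1pr1 itself, which guides lymphocytes out of lymphoid tissue, fell to 82.7 FPKM in BRFc_60mer, against 118 FPKM in BRFc, and to 79.0 FPKM in Ab_60mer, against 118 FPKM in Ab (adjusted p = 3.32e-07 after mBaffR-mFc and 5.79e-08 after control antibody).

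The spread of Cd69, Cd83 and Cd86 inside groups followed the order in which libraries were deposited. Each of the 3 genes was lowest in the third library deposited in 6 of 6 groups, which held for 1.49% of all tested genes (173 of 11646). Cd69 was highest in the first library deposited in 6 of 6 groups, and Cd83 and Cd86 in 5 of 6. The mean deviation of the third library from its group mean was -0.15 for Cd69, -0.17 for Cd83 and -0.12 for Cd86 in log2(FPKM + 1). After each group mean was taken out, the values of Cd69 and Cd86 over 18 libraries had a Pearson r of 0.908, those of Cd83 and Cd86 of 0.857, and those of Cd69 and Cd83 of 0.801. All of these values come from the same 18 libraries, and the labels do not say what position in the deposit stands for. The Ab_3mer library without connective tissue transcripts was also the third deposited of its group. For Cd69, Cd83 and Cd86 the connective tissue term and the order of deposition therefore cannot be told apart. With that position as a block in the model, an alternative chosen after seeing the data, further calls were made. Cd83 then passed in Ab_60mer over Ab (0.19 ± 0.0471; adjusted p = 0.0116, limma) and in BRFc_60mer over BRFc_3mer (0.35 ± 0.0471; adjusted p = 0.000331). Cd69 passed in BRFc_60mer over BRFc (0.30 ± 0.0563; adjusted p = 0.00304). Cd86 passed as lower in BRFc_60mer over BRFc_3mer (-0.30 ± 0.0492; adjusted p = 0.00116) and in Ab_60mer over Ab_3mer (-0.19 ± 0.0492; adjusted p = 0.0225). For Cd40 (2 of 6 groups), Cd44 (4 of 6), Icam1 (1 of 6), Il2ra (3 of 6) and Tnfrsf14 (0 of 6) the third library was not regularly the lowest. The residual SD of Cd69 and of Cd83 lay at the percentiles 82.1 and 81.9 of all tested genes, and that of Cd44 at the percentile 6.3.

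**Figure D3:**
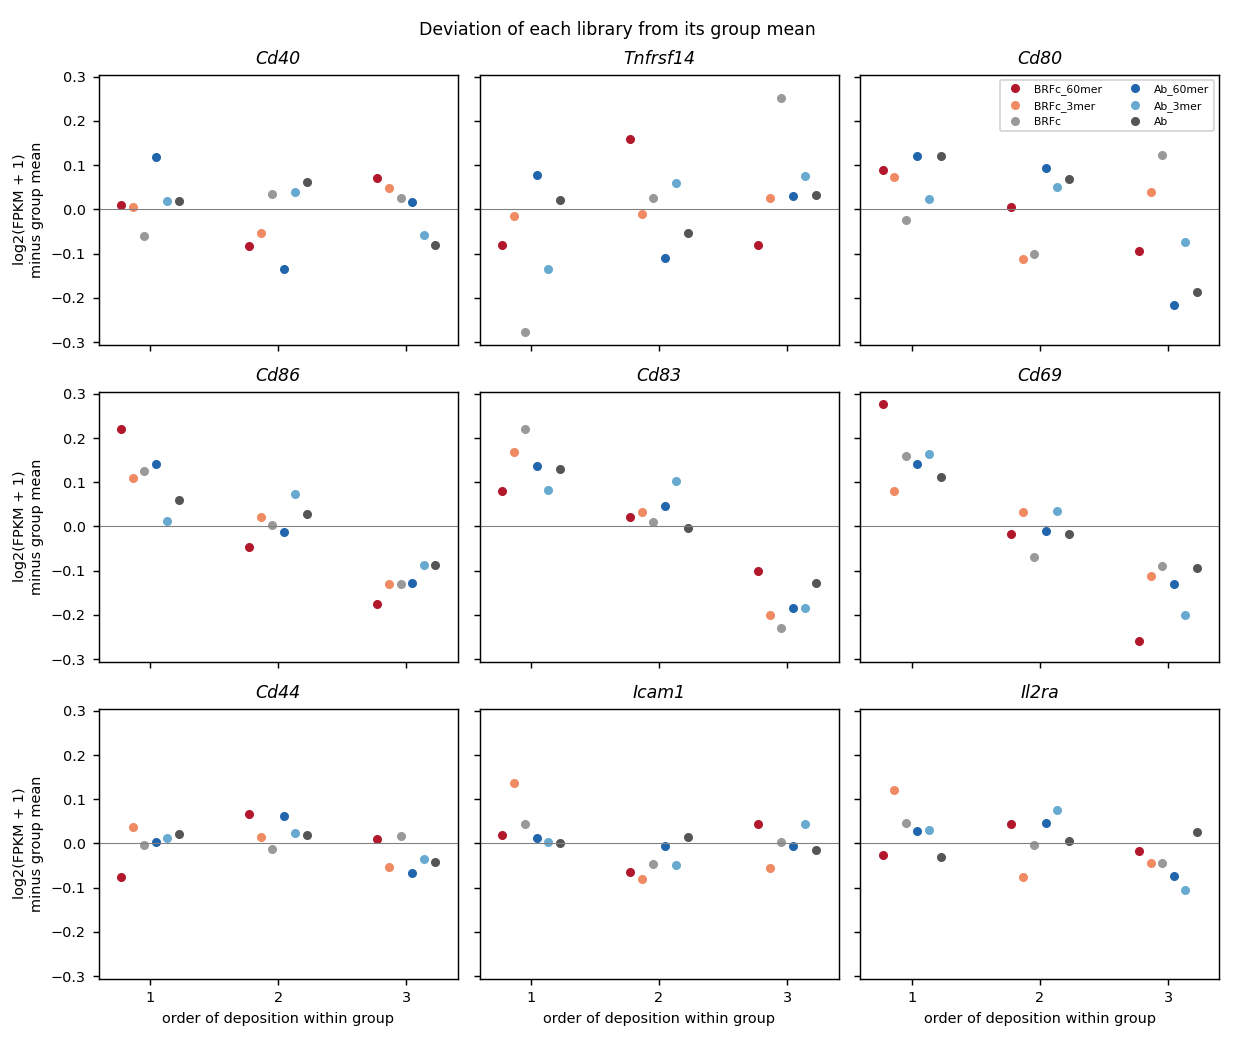
Deviation of each library from its group mean in log2(FPKM + 1) (vertical axis), by its place in the order of deposition within its group (horizontal axis, groups set slightly apart), for the 9 genes. Each point is 1 library. For Cd69, Cd83 and Cd86 the third library of all 6 groups lies below 0.

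Cd44 (chr2:102811141-102901665, minus strand) encodes the adhesion receptor for hyaluronan, which also binds osteopontin, the product of Spp1. It had the clearest response of the 9 genes, with rank 6 of 11646 genes in the test over all groups (adjusted p = 1.36e-06, limma) and 96.7% of its variation between groups. Its libraries stood at 59.8, 66.1 and 63.5 FPKM in BRFc_60mer and at 65.8, 68.6 and 62.6 FPKM in Ab_60mer. They stood at 47.6, 46.9 and 44.7 FPKM in BRFc_3mer and at 48.8, 48.5 and 49.5 FPKM in BRFc. The values were 49.6, 50 and 48.0 FPKM in Ab_3mer and 45.3, 45.2 and 43.3 FPKM in Ab. The lowest library with BAFF 60mer was above the highest of the other 12, which belonged to Ab_3mer. Cd44 was higher by 0.55 ± 0.0443 in Ab_60mer over Ab (95% interval 0.45 to 0.64; adjusted p = 3.27e-06), a rise of 47.2% in mean FPKM, and by 0.36 ± 0.0443 in BRFc_60mer over BRFc (adjusted p = 0.000154), a rise of 29.1%. Over BAFF 3mer it was higher by 0.41 after control antibody and by 0.44 after mBaffR-mFc (adjusted p = 4.33e-05 and 2.46e-05). Within carrying libraries the difference was 0.39 (adjusted p = 0.000534). With the connective tissue term Cd44 still passed in Ab_60mer over Ab (0.50 ± 0.0812; adjusted p = 0.0168), but no longer in BRFc_60mer over BRFc (0.31 ± 0.0812; adjusted p = 0.315) or in BRFc_60mer over BRFc_3mer (0.39 ± 0.0812; adjusted p = 0.0874).

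Icam1 (chr9:21015985-21028817, plus strand) encodes the ligand of the integrin LFA-1, by which B and T cells hold to each other. Its libraries were at 26.1, 24.6 and 26.6 FPKM in BRFc_60mer, at 25.4, 21.7 and 22.1 FPKM in BRFc_3mer, and at 20.8, 19.5 and 20.2 FPKM in BRFc. They were at 28.1, 27.7 and 27.7 FPKM in Ab_60mer, at 23.8, 22.9 and 24.5 FPKM in Ab_3mer, and at 23.6, 23.8 and 23.3 FPKM in Ab. Ab_60mer was above every other library, and BRFc was below every other library. The difference was 0.34 ± 0.0536 in BRFc_60mer over BRFc (adjusted p = 0.0014, limma) and 0.23 ± 0.0536 in Ab_60mer over Ab (adjusted p = 0.0103). In Ab_60mer over Ab_3mer it was 0.22 ± 0.0536 (adjusted p = 0.0258), and that call was lost whenever any 1 of the 6 libraries was left out (adjusted p = 0.0533 to 0.0894), including within carrying libraries (0.24; adjusted p = 0.0533). With the connective tissue term Icam1 did not pass in BRFc_60mer over BRFc (0.40 ± 0.0981; adjusted p = 0.22) or in Ab_60mer over Ab (0.30 ± 0.0981; adjusted p = 0.353). Neither gene of its integrin partner passed as higher. Itgal differed by -0.07 in BRFc_60mer over BRFc and by 0.05 in Ab_60mer over Ab and did not pass. Itgb2 fell by 0.13 in BRFc_60mer over BRFc (adjusted p = 0.0476) and by 0.12 in Ab_60mer over Ab (adjusted p = 0.0394).

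Il2ra (chr2:11642807-11693193, plus strand) encodes CD25, the subunit that gives the IL-2 receptor its high affinity. It was at 31.3, 32.9 and 31.5 FPKM in BRFc_60mer, at 30.6, 26.6 and 27.2 FPKM in BRFc_3mer, and at 28.5, 27.5 and 26.7 FPKM in BRFc. It was at 37.4, 37.9 and 34.8 FPKM in Ab_60mer, at 29.2, 30.2 and 26.5 FPKM in Ab_3mer, and at 27.0, 27.7 and 28.1 FPKM in Ab. The libraries fell into 3 levels without overlap, Ab_60mer highest, BRFc_60mer below it and the other 12 lowest. Il2ra was higher by 0.40 ± 0.0576 in Ab_60mer over Ab (adjusted p = 0.000413, limma) and by 0.35 ± 0.0576 in Ab_60mer over Ab_3mer (adjusted p = 0.00204), and within carrying libraries by 0.29 (adjusted p = 0.0152). In BRFc_60mer over BRFc the difference of 0.20 ± 0.0576 just missed the threshold (adjusted p = 0.053) and passed with a minimum mean of 5 FPKM (adjusted p = 0.0439), with rescaled libraries (0.0346), with voom (0.0335), without BRFc replicate 1 (0.0496) and with the order of deposition as a block (0.0242). With the connective tissue term it was 0.04 ± 0.0957 (adjusted p = 0.999), and the difference in Ab_60mer over Ab was 0.24 ± 0.0957 and lost its call (adjusted p = 0.49). T cells and NK cells also express IL-2 receptor chains. The summed level of 12 T cell markers was 47.5 to 55.5 FPKM in the 6 libraries with BAFF 60mer and 45.3 to 56.9 FPKM in the other 12, most of it Lck (39.4 to 49.8 FPKM), with Cd3e at 0.171 to 0.966 FPKM.

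Promoter sequences, from 250 bases before to 50 bases after the start of the gene, were at hand in RefSeq (build GRCm38.p6) for 5 of the 9 genes, Cd44, Cd80, Icam1, Il2ra and Tnfrsf14. Those of the 3 genes among them that were higher with BAFF 60mer are shown, since NF-kB is the known output of BAFF receptors. The NF-kB consensus, searched on both strands, was found in 1 of the 5, Il2ra, and in 4.51% of 32851 mouse promoters of the same length. The match GGGAATCCCC began 201 bases before the start, read on both strands, and a match on the minus strand overlapped it by all but a base. A further form, GGAANTTCC, was searched on both strands after the promoters had been read. It was found in Icam1, as GGAAATTCC from 153 bases before the start, and in 0.928% of all promoters. Because the form was picked after reading these promoters, that share does not measure how unusual the match is. No stretch of Cd44, Tnfrsf14 or Cd80 matched either form in this window. Capitals mark the matches, and each sequence runs 5′ to 3′ on the strand of its gene.
Il2ra, chr2:11642542-11642841, plus strand: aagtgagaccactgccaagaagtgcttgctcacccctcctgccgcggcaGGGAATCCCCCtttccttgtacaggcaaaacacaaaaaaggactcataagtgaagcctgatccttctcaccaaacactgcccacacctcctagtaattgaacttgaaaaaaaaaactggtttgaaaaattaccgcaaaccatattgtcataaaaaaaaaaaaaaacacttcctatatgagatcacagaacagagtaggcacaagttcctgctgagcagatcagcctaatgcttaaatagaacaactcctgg
Icam1, chr9:21015690-21015989, plus strand: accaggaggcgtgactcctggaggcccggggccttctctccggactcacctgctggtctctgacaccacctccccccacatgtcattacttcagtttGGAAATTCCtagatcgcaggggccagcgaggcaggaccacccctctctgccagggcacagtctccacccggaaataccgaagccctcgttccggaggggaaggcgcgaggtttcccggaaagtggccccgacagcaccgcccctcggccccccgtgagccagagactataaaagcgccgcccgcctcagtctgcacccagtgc
Cd44, chr2:102901616-102901915, minus strand: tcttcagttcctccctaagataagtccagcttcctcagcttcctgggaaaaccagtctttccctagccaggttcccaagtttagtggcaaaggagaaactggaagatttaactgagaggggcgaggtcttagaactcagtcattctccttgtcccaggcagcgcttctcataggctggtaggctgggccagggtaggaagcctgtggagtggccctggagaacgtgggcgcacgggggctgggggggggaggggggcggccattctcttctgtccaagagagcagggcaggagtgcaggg
A match is a description of the letters, not a binding site.

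With BAFF 3mer no call was made. None of the 9 passed in BRFc_3mer over BRFc or in Ab_3mer over Ab, and none of the 11646 tested genes did (0% in both), with limma on FPKM or with voom on fragments. At an unadjusted p under 0.05, 388 genes passed in BRFc_3mer over BRFc, 2 of the 9 among them, and 632 in Ab_3mer over Ab, 1 of the 9 among them. Cd44 went opposite ways in these comparisons, without overlap. It was lower in every BRFc_3mer library than in BRFc (-0.07 ± 0.0443; adjusted p = 0.999, limma) and higher in every Ab_3mer library than in Ab (0.14 ± 0.0443; adjusted p = 0.881). The difference between these differences was -0.21 ± 0.0626 (unadjusted p = 0.00346) and did not pass over all genes (adjusted p = 0.981). Icam1 was higher in every BRFc_3mer library than in BRFc, by 0.18 ± 0.0536 (adjusted p = 0.999), and was at 0.01 ± 0.0536 in Ab_3mer over Ab. Cd69 and Cd80 also did not overlap between BRFc_3mer and BRFc, with 0.27 ± 0.118 and 0.24 ± 0.123. In all, 4 of the 9 did not overlap between BRFc_3mer and BRFc (9.19% of all tested genes) and 1 between Ab_3mer and Ab (11.5%). For Cd40 the 95% interval was -0.15 to 0.11 in BRFc_3mer over BRFc and -0.21 to 0.05 in Ab_3mer over Ab. Both intervals end below the differences seen with BAFF 60mer over no BAFF, 0.35 and 0.41.

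The pretreatment addresses the question of whether the responses change when the contact of BAFF with BR3 is covered. None of the 9 genes passed in BRFc_60mer over Ab_60mer (0.0258% of all tested genes did), in BRFc_3mer over Ab_3mer (0%) or in BRFc over Ab (0%), and none passed in the interactions of pretreatment with BAFF 60mer (0.00859%) or with BAFF 3mer (0%). At an unadjusted p under 0.05, 3, 0 and 2 of the 9 passed in the 3 comparisons of pretreatment, and 540, 452 and 688 of all genes did. With voom, too, none of the 9 passed in these comparisons. The 3 of the 9 with BAFF 60mer were Il2ra, Tnfrsf14 and Cd40. Il2ra was lower in every BRFc_60mer library than in every Ab_60mer library, by 0.20 on the log2(FPKM + 1) scale (95% interval -0.32 to -0.07; unadjusted p = 0.00342, adjusted p = 0.686, limma). Tnfrsf14 was at -0.24 (95% interval -0.46 to -0.03; unadjusted p = 0.0273, adjusted p = 0.993) and Cd40 at -0.13 ± 0.0607 (unadjusted p = 0.0476, adjusted p = 0.993), both with overlapping libraries. Icam1 was lower there without overlap, at -0.11 ± 0.0536 (adjusted p = 0.993), so that 2 of the 9 did not overlap, against 8.41% of all tested genes. Without BAFF, Icam1 was lower in every BRFc library than in every Ab library (-0.22 ± 0.0536; adjusted p = 0.829) and Cd44 higher (0.13 ± 0.0443; adjusted p = 0.829), which makes 2 of the 9 against 10.3% of all tested genes. With BAFF 3mer, Cd44 alone of the 9 did not overlap (-0.08 ± 0.0443; 10% of all tested genes).

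For the rise with BAFF 60mer, the interaction, the difference after mBaffR-mFc minus that after control antibody, was -0.06 ± 0.0858 for Cd40 (95% interval -0.24 to 0.12). It was -0.19 ± 0.0626 for Cd44 (-0.32 to -0.05; unadjusted p = 0.00865, adjusted p = 0.88, limma) and -0.19 ± 0.0814 for Il2ra (-0.37 to -0.02; adjusted p = 0.901). For Icam1 it was 0.11 ± 0.0759 (-0.05 to 0.27; adjusted p = 0.922). A p that misses the threshold does not show that the responses after the 2 pretreatments are alike.

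**Figure D4:**
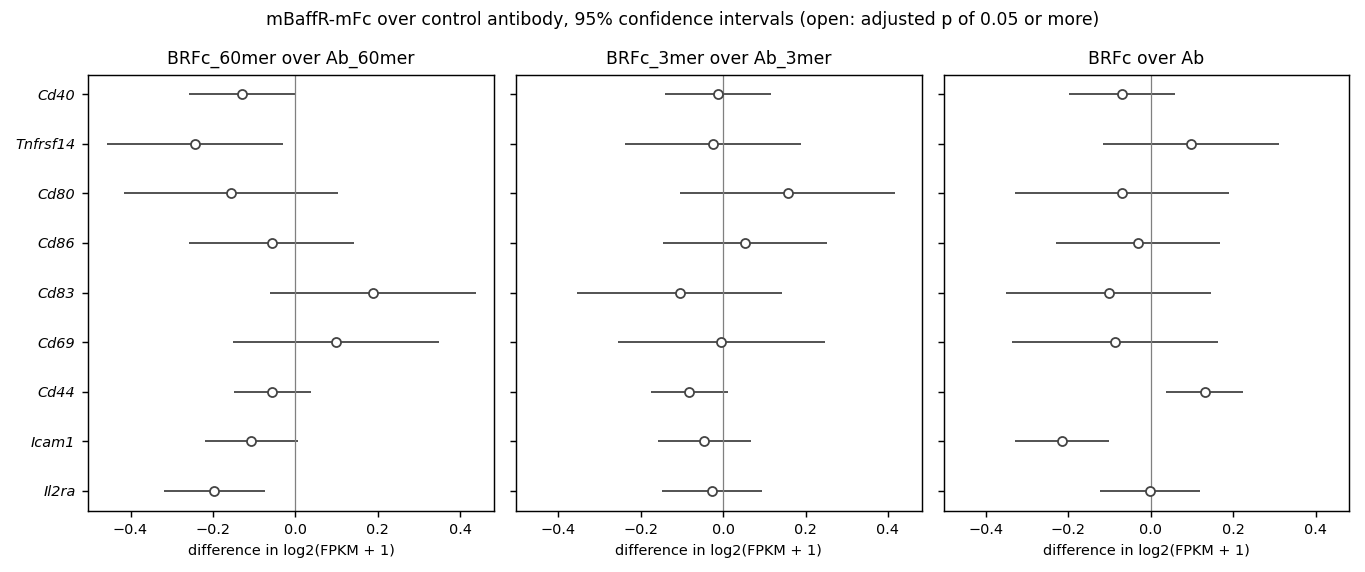
Difference of mBaffR-mFc over control antibody for each of the 9 genes, in log2(FPKM + 1), with 95% confidence intervals from limma, with BAFF 60mer, with BAFF 3mer and without BAFF. All points are open, since none passed at an adjusted p under 0.05. The intervals of Il2ra, Tnfrsf14 and Cd40 with BAFF 60mer and of Icam1 without BAFF lie below 0, and that of Cd44 without BAFF lies above it.

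Over the 18 libraries, Cd40, Cd44, Icam1 and Il2ra varied together, with Pearson r between 0.699 (Cd44 and Icam1) and 0.887 (Cd44 and Il2ra). With each group mean taken out, r was 0.54 for Cd44 and Il2ra and lay between -0.222 (Cd40 and Cd44) and 0.296 (Icam1 and Il2ra) for the other 5 pairs. Among 10385 genes that averaged 2 FPKM or more, those most like Cd44 over the 18 libraries were Kynu (kynureninase; r = 0.962), Abcc1 (a drug and leukotriene exporter; 0.96) and Canx (the chaperone calnexin; 0.958). Those most like Cd40 were Gramd3 (0.943), Pqlc1 (0.941) and Nfkbie (an NF-kB inhibitor; 0.937). The genes most like Il2ra were Bcl2l1 (the survival protein BCL-XL; 0.946), Chka (choline kinase; 0.929) and Hivep1 (a zinc finger transcription factor; 0.923), and those most like Icam1 were Sema7a (a semaphorin; 0.847), Elp5 (0.841) and Pepd (a dipeptidase; 0.84). These libraries share 6 groups and the split by connective tissue transcripts, so r describes them and nothing further.

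Genes around the 9 were read from lists. Of 25 other activation and costimulation molecules, 22 were tested. In BRFc_60mer over BRFc, 4 rose, 2 fell and 16 did not pass, where 4.83% of all tested genes passed. In Ab_60mer over Ab 2 rose, 2 fell and 18 did not pass, where 14% of all tested genes passed. Fcer2a, the gene of the low-affinity IgE receptor CD23, rose to 235 FPKM in BRFc_60mer, against 164 FPKM in BRFc, and to 220 FPKM in Ab_60mer, against 172 FPKM in Ab (adjusted p = 1.92e-06 after mBaffR-mFc and 5.26e-05 after control antibody, limma). Gpr183, the oxysterol receptor that positions B cells at the edge of follicles, rose by 0.56 ± 0.0862 in BRFc_60mer over BRFc (adjusted p = 0.00119) and was at 0.19 ± 0.0862 in Ab_60mer over Ab (adjusted p = 0.157). Cd38, an ectoenzyme that uses NAD, fell by 0.28 in BRFc_60mer over BRFc and by 0.24 in Ab_60mer over Ab. The SLAM family ligand Cd48 fell in BRFc_60mer over BRFc (-0.22) and the lipid-presenting molecule Cd1d1 in Ab_60mer over Ab (-0.42). Ly9 rose by 0.19 ± 0.0458 in Ab_60mer over Ab (adjusted p = 0.0111, limma). In BRFc_60mer over BRFc, Ly9 was at 0.13 ± 0.0458 and did not pass (adjusted p = 0.113). The median difference of the list was -0.00055 in BRFc_60mer over BRFc and -0.0071 in Ab_60mer over Ab.

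Most genes of the receptor machinery shared by CD40 and BAFF receptors did not pass. Of 11 adaptor genes, 2 rose, 1 fell and 8 did not pass in BRFc_60mer over BRFc (4.83% of all tested genes passed), and 4 rose, 1 fell and 6 did not pass in Ab_60mer over Ab (14% of all tested genes). Birc3, a ubiquitin ligase of the TRAF complex, rose by 0.33 ± 0.036 after mBaffR-mFc and 0.35 ± 0.036 after control antibody. Traf1, an adaptor that NF-kB itself induces, rose by 0.28 ± 0.054 after mBaffR-mFc and 0.36 ± 0.054 after control antibody. Traf3, the adaptor that holds the noncanonical pathway in check, rose by 0.27 ± 0.0511 in Ab_60mer over Ab (adjusted p = 0.00334, limma). The adaptor gene Traf5 fell by 0.41 after mBaffR-mFc and by 0.29 after control antibody. Of 14 NF-kB subunits and inhibitors, 3 rose, none fell and 11 did not pass in either comparison. The inhibitor genes Nfkbie (0.37 after mBaffR-mFc, 0.36 after control antibody) and Nfkbia (0.39 and 0.30 likewise) were among them. The third was Nfkb2, the precursor of the noncanonical subunit p52 (0.39 after mBaffR-mFc, 0.28 after control antibody). Relb, the partner of p52, was at 0.15 after mBaffR-mFc (adjusted p = 0.067) and 0.02 after control antibody (adjusted p = 0.855).

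Of 17 ligands, counter-receptors and receptor subunits of the 9 molecules, 10 were tested, and Cd40lg, at a mean of 0.0466 FPKM, and Cd28, at 0.967 FPKM, were among the 7 that were not. In BRFc_60mer over BRFc, 3 of the 10 rose and 2 fell, and in Ab_60mer over Ab 1 rose and 2 fell, where 4.83% and 14% of all tested genes passed. Spp1, osteopontin, rose to 5.14 FPKM in BRFc_60mer, against 1.78 FPKM in BRFc (1.14 ± 0.139 on the log2 scale; adjusted p = 0.000139, limma), and was at 2.21 FPKM in Ab_60mer and 2.09 FPKM in Ab. It was also higher in BRFc_60mer than in Ab_60mer (0.93 ± 0.139; adjusted p = 0.0163). Macrophages also express Spp1, and the summed level of 10 monocyte and macrophage markers was 160.2 to 171 FPKM in BRFc_60mer and 165 to 179 FPKM in BRFc. Il2rb, the beta chain of the IL-2 receptor, fell to 29.1 FPKM in BRFc_60mer, against 34.1 FPKM in BRFc, and to 27.3 FPKM in Ab_60mer, against 34.0 FPKM in Ab (adjusted p = 0.0221 after mBaffR-mFc and 0.00205 after control antibody). The summed level of 10 NK cell markers, of which Il2rb is 1, was 137 to 149 FPKM in the 6 libraries with BAFF 60mer and 141 to 168 FPKM in the other 12, and its part in the lower Il2rb was not tested. The common gamma chain Il2rg was at 130 FPKM in BRFc_60mer, against 118 FPKM in BRFc, and at 130 FPKM in Ab_60mer, against 120 FPKM in Ab, and did not pass. In the list of IL-2 receptor signalling, Il2rb was the only 1 of 8 tested genes to pass.

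Other markers of early activation were 12 genes such as Egr1, Myc, Nr4a1 and Fos that respond to the antigen receptor. None of the 12 passed in BRFc_60mer over BRFc or in Ab_60mer over Ab, where 4.83% and 14% of all tested genes passed. Among the 12, the smallest p belonged to Egr3, at 0.11 ± 0.0639 in BRFc_60mer over BRFc (adjusted p = 0.379, limma), and to Junb, at -0.41 ± 0.169 in Ab_60mer over Ab (adjusted p = 0.118). Their median difference was 0.01 in BRFc_60mer over BRFc and 0.04 in Ab_60mer over Ab. Of 5 genes of lymphocyte egress, which CD69 opposes, 3 fell in both comparisons. Of all tested genes, 4.83% passed in either direction in BRFc_60mer over BRFc and 14% in Ab_60mer over Ab. As lower alone, 3.37% passed in BRFc_60mer over BRFc. The egress genes that fell were S1pr1, its regulator Klf2 (-0.40 after mBaffR-mFc, -0.52 after control antibody) and the receptor S1pr4 (-0.51 after mBaffR-mFc, -0.69 after control antibody). The median difference of the list was -0.40 in BRFc_60mer over BRFc and -0.52 in Ab_60mer over Ab, beside -0.02 over all genes.

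**Figure D5:**
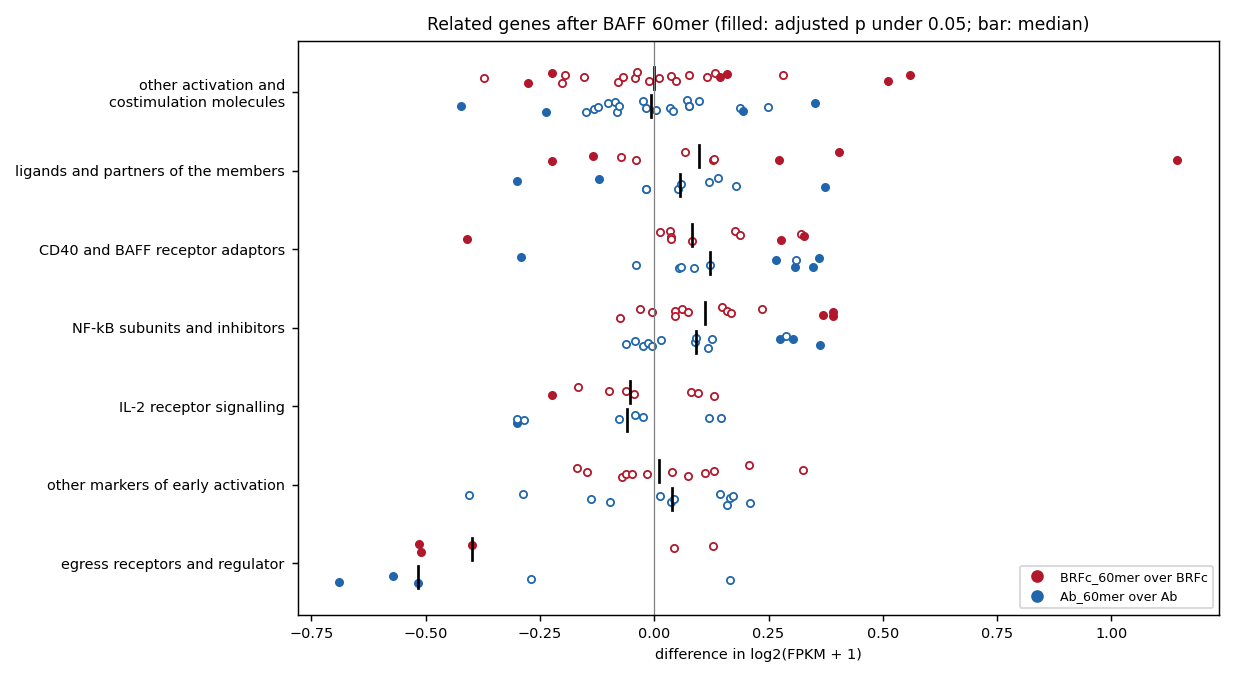
Difference of BAFF 60mer over no BAFF in log2(FPKM + 1) (horizontal axis) for the tested genes of 7 lists of related genes (rows). Red is BRFc_60mer over BRFc and blue Ab_60mer over Ab, filled points passed at an adjusted p under 0.05, and black bars are medians. The 3 filled points of the egress genes lie left of 0 in both comparisons, and the point farthest to the right, at 1.14, is Spp1.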

How the data were processed

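Per the labels' protocols, total RNA was sequenced by a company that returned FPKM for the authors, and the deposited table of FPKM values is the sole source of values. The aligner, counting tool and build are not given in the sources used here. Of 35275 gene IDs, 34490 had a symbol in GENCODE M21. With annotated lengths, 88.9% of values under 500 fragments of single-transcript genes were whole fragments to within 0.1. For voom, an alternative, each gene took the length that made its fragments whole in all 18 libraries, to within 0.02, which was found for 11646 of 11646 tested genes (100%). The genes averaging 1 FPKM or more were fitted with limma 3.58.1 (R 4.3.3) on log2(FPKM + 1), with 1 variance per gene over 6 groups (12 residual df) and a variance trend. Calls were made under an adjusted p of 0.05 (Benjamini-Hochberg over all genes). Log2 differences understate changes of low genes. The fitting step was tested on simulated data with independent noise in each library. The simulation held no connective tissue split and no effect of the order of deposition. Genes and lists were chosen with earlier results of the deposited data known. From each list up to 4 passing genes were named by smallest p, otherwise up to 2. Itgal, Relb, Il2rg, Cd40lg and Cd28 were named for their roles after their values were seen. Alternatives were a pseudocount of 0.1, rescaling by median of ratios, a minimum mean of 5 FPKM or no minimum, voom, a connective tissue term and leaving out each library. The labels carry no replicate numbers, so numbers follow the order of deposition. Python 3.11.15 and matplotlib 3.10.9 drew the figures.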

Additional observations from a re-analysis of the deposited data

How the results depend on the processing

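No called difference of the 9 genes changed sign under any setting tried. Leaving out 1 library at a time gave 4 to 4 of the 9 in Ab_60mer over Ab, 3 to 3 in Ab_60mer over Ab_3mer, 3 to 6 in BRFc_60mer over BRFc, 2 to 4 in BRFc_60mer over BRFc_3mer, 4 to 6 in the test over all groups and 0 elsewhere. Over all genes, in the same order, it gave 756 to 1668 (1628 with all libraries), 246 to 471 (560), 242 to 731 (563), 233 to 543 (601) and 671 to 1160 (1040). It gave 1 to 6 in BRFc_60mer over Ab_60mer (3), 0 to 0 in the 60mer interaction (1) and 0 to 1 in the other comparisons (0). The connective tissue term gave, of the 9, 1 in Ab_60mer over Ab, 0 in BRFc_60mer over BRFc, 0 in BRFc_60mer over BRFc_3mer and 2 in the test over all groups. Over all genes it gave 16 in Ab_60mer over Ab, 246 in Ab_60mer over Ab_3mer, 10 in BRFc_60mer over BRFc, 15 in BRFc_60mer over BRFc_3mer, 50 in the test over all groups and 2 in the 60mer interaction. The term rests on 1 Ab_3mer library, the third deposited of its group, against the other 2. Standard errors grew with the term, for Cd40 in Ab_60mer over Ab to 0.11. With this term, with no filter, or with both carrying Ab_3mer libraries left out, 1 gene passed in Ab_3mer over Ab, in BRFc_3mer over Ab_3mer and in the 3mer interaction. With those libraries left out, 112 genes passed in Ab_60mer over Ab_3mer. No filter and rescaling each gave 0 in the 60mer interaction. The cause of these shifts was not tested.

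No paired analysis was possible because the labels give no replicate numbers. As an alternative chosen after seeing the data, position in the order of deposition was used as a replicate block. Deviations of libraries at the same position had a median r of 0.0895 over 45 pairs (-0.0687 to 0.389). Over 90 other pairs it was -0.0549 (-0.334 to 0.274), and 12 of 18 libraries were most like their own position. Libraries at the same position thus tended to deviate together, though the median r was low. The numbers were not taken as pairs because the labels do not say what position stands for. With the block, 4 of the 9 passed in BRFc_60mer over BRFc_3mer and 8 in the test over all groups. Over all genes, 1099 passed in Ab_60mer over Ab_3mer, 1105 in BRFc_60mer over BRFc, 943 in BRFc_60mer over BRFc_3mer and 1871 in the test over all groups. Apart from the test over all groups, the calls gained were those of Cd69, Cd83, Cd86 and Il2ra given above.

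Cd80 rested on 22 to 50 fragments per library, the fewest of the 9 genes, and each group on 3 libraries.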
